A study of Mus musculus with 18 samples.

Results

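Transcripts of the enzymes that make nitric oxide (NO) from arginine, or that compete with them for it, were followed in whole lacrimal glands (LGs) of male mice. The 10 genes were the 3 NO synthases Nos1, Nos2 and Nos3, the arginases Arg1 and Arg2, the arginine-rebuilding enzymes Ass1 and Asl, Ddah1 and Ddah2, and the adaptor Nos1ap. They were found by symbol among the 54232 genes counted, and all 10 were present. The set was put together because Nos1 was nearly absent in BALB/c and high in NOD.H-2b, so the set was chosen by the measured strain difference of Nos1, which is given as a description with no test. Tests between strains concern the other 9 genes. The controls were BALB/cJ mice (BALB/c) and the disease model was NOD.B10Sn-H2b/J (NOD.H-2b), a NOD mouse with the major histocompatibility complex of a B10 strain that develops Sjögren's-like disease of the LG. Glands came from mice aged 2, 4 or 6 months (2M, 4M, 6M), with 3 mice in each of the 6 groups and 1 sample per mouse. No group was treated or carried an engineered allele. BALB/c and NOD.H-2b differ at many loci besides those of the disease, so strain and disease cannot be told apart.

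NO synthases oxidize arginine to citrulline and release NO. The neuronal enzyme Nos1 and the endothelial enzyme Nos3 are switched on by calcium and calmodulin, while Nos2 is the inducible enzyme of activated macrophages. Arginases split the same arginine into ornithine and urea, argininosuccinate synthase (Ass1) and lyase (Asl) turn citrulline back into arginine, and the Ddah enzymes degrade methylated arginines that inhibit NO synthases. In the LG, NO is known as a messenger of the parasympathetic nerves and of blood vessels that adjust tear secretion.

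The start regions of 5 of the 10 genes were held in the RefSeq promoter table of GRCm38.p6, each from 250 bases before to 50 bases after the start. The sequence is that of the reference strain C57BL/6J, which is neither strain studied. The windows of Nos1, of its adaptor Nos1ap (the one at the 5′ end of the gene) and of Ass1 are shown because Nos1 defines the set, Nos1ap was lower in NOD.H-2b at every age and Ass1 rose with age in both strains. Capitals mark matches, on either strand, to an E-box (CANNTG), the CRE half-site (TGACG), the GC box (GGGCGG), the TATA box (TATAAA), the GAS element (TTCNNNGAA) or the NF-kB consensus. The Nos1 window lies at chr5:117866589-117866888 on the plus strand, inside the annotated gene, which has several alternative first exons. The Nos1ap window lies at chr1:170589800-170590099 on the minus strand, and the Ass1 window at chr2:31470020-31470319 on the plus strand.
Nos1: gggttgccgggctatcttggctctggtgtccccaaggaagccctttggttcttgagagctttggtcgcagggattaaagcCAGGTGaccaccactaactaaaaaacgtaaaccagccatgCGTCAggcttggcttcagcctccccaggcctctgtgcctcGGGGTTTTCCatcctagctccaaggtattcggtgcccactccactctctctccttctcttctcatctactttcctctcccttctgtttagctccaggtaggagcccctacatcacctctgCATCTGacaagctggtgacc
Nos1ap: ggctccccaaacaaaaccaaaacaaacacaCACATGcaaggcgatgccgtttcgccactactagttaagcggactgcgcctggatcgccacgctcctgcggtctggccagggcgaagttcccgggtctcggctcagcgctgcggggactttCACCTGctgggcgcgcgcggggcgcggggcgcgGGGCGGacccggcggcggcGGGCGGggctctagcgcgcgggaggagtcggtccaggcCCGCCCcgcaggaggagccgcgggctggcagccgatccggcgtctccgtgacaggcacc
Ass1: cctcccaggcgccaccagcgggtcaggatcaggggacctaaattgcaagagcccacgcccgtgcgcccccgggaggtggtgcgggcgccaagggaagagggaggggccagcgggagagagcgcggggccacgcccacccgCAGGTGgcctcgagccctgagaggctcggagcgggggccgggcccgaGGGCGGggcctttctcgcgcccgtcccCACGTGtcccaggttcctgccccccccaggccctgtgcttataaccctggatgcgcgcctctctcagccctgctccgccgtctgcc

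The Nos1 window held 1 NF-kB match, a motif found in 8.46% of the 32851 promoter windows, and 1 CRE half-site, found in 20.8%. It also held 2 E-boxes, which 72.3% of the windows carry at least once. GC boxes, present in 35.7% of windows, were matched 3 times in the Nos1ap window and 1 time in the Ass1 window. The GAS element was matched in 8.3% of windows and the TATA box in 13.6%, and the 3 sequences above had neither. These are letter matches in 1 window per gene, and they say nothing of binding in the LG.

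Nos1 was the gene of the set that separated the strains most widely. The BALB/c mice had 9, 10 and 4 counts at 2M, 5, 6 and 7 at 4M, and 2, 2 and 3 at 6M. The NOD.H-2b mice had 12602, 8634 and 11216 counts at 2M, 10307, 14111 and 14120 at 4M, and 9051, 12611 and 9874 at 6M. Every NOD.H-2b mouse thus lay far above every BALB/c mouse, from the youngest age on. In CPM, which scales the counts to the size of each library (normalized by TMM), NOD.H-2b reached 172 ± 38.0, 219 ± 63.4 and 171 ± 51.3 at 2M, 4M and 6M (mean ± SD, n = 3 mice at each age). The ratio of the summed counts, per library, was 1222 at 2M (95% exact interval 814.5 to 1929) and 2020 at 4M (1278 to 3409). At 6M, where all BALB/c mice were at or below 3 counts, it was 4320 (2096 to 10750). These intervals cover counting error only. With BALB/c set to 3 counts per library, NOD.H-2b was 3080-fold higher at 6M. The BALB/c sums behind the ratios were only 23, 18 and 7 counts, so the ratios do not show a difference that grew with age.

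Within NOD.H-2b, the level of Nos1 was already reached at 2M. The log2 fold change was 0.35 from 2M to 4M (95% interval -0.31 to 1.01, FDR = 0.427), -0.34 from 4M to 6M (-1.05 to 0.36, FDR = 0.597) and -0.02 from 2M to 6M (-0.71 to 0.67, FDR = 0.959; edgeR quasi-likelihood test, Benjamini-Hochberg over all genes). No age change of Nos1 therefore passed the test, and these intervals still allow changes of either sign. The mice of NOD.H-2b spread from 118 to 283 CPM. In BALB/c the counts were too low for a test of age.

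Nos1 lies on chromosome 5 from 117781032 to 117958840 on the plus strand (GRCm38, GENCODE M21). It is overlapped by Gm37028, a short transcript model of unknown status on the same strand, and by the antisense gene Gm26995. Gm37028 had 0 counts in all BALB/c mice and 2 to 12 in the NOD.H-2b mice, and Gm26995 had at most 2 counts in any mouse. The strand setting of the counting is not given in the sources used here, so reads of overlapping genes cannot be told apart, but those assigned to either model were few beside Nos1.

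Defining markers of nerve, the cell type for which Nos1 is named, were near 0 in both strains. The summed level of 15 nerve genes was 0.131 to 0.245 CPM in NOD.H-2b and 0.0529 to 0.313 CPM in BALB/c. Chat, Slc18a3, Slc5a7, Vip, Th and Dbh, which mark autonomic neurons, had 0 counts in all mice. These values count RNA in the gland and do not measure its nerve fibres, so its nerve supply was not tested. The 6 Schwann cell genes summed to 31.7 to 37.1 CPM in BALB/c and 32.5 to 37.6 CPM in NOD.H-2b. Skeletal muscle, the other classical site of Nos1, was represented by 10 genes with a sum of 1.07 to 2.15 CPM in BALB/c and 0.296 to 1.11 CPM in NOD.H-2b, so the sum, in BALB/c largely Ckm and Mb, was the lower in the strain with high Nos1. The cells that carry the Nos1 transcript were not identified, and in bulk tissue a change in the number of cells of a type and a change in RNA per cell cannot be told apart.

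**Figure D1:**
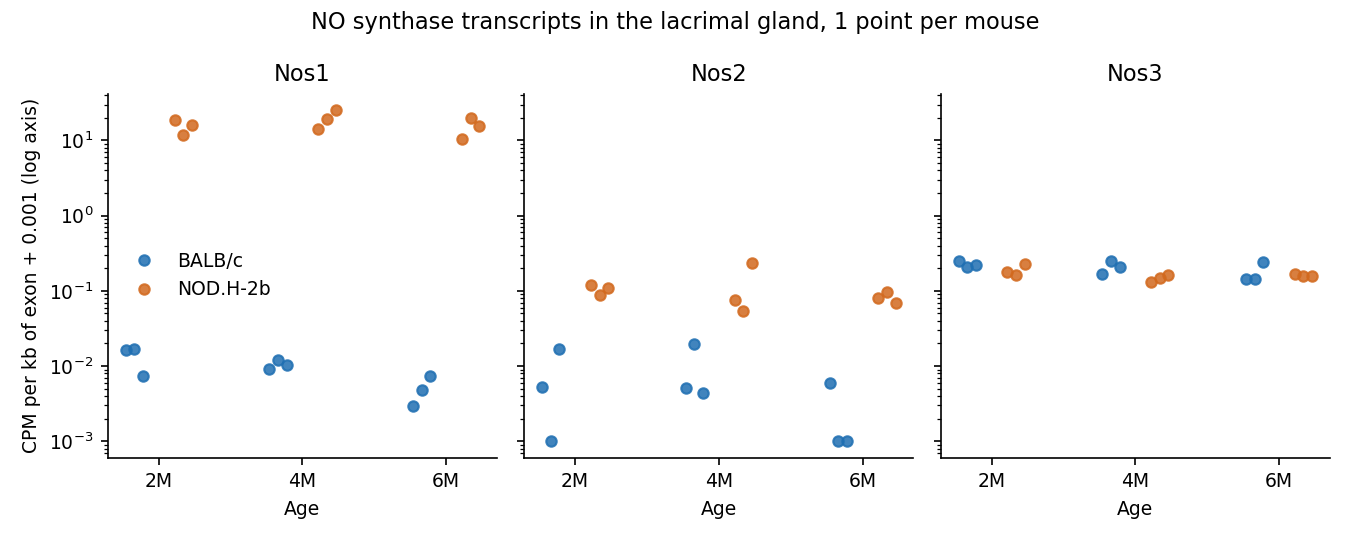
Level of the 3 NO synthases in each mouse, in CPM per kb of exon plus 0.001 on a log axis, by age and strain (1 point per mouse, 3 mice per group). Nos1 of NOD.H-2b lies above all other points at every age, Nos2 of NOD.H-2b lies above Nos2 of BALB/c, and Nos3 of the strains overlaps at 2M and 6M.

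The inducible synthase Nos2 was scarce in both strains and higher in NOD.H-2b. The BALB/c mice had 1, 0 and 4 counts at 2M, 1, 4 and 1 at 4M, and 2, 0 and 0 at 6M. The NOD.H-2b mice had 32, 25 and 30 counts at 2M, 22, 15 and 52 at 4M, and 27, 24 and 17 at 6M. The strains did not overlap at any age. The ratio of summed counts was 15.1 at 2M (95% exact interval 6.22 to 47.6) and 14.0 at 4M (6.18 to 39.2), and at 6M NOD.H-2b was at least 6.44-fold higher. Nos2 was called at each age (FDR = 0.000679, 0.005 and 0.000254 in edgeR), but it passed the filter on low counts only through NOD.H-2b and so had to differ. The fitted log2 fold change of 3.87 at 2M became 5.37 without BALB/c replicate 3, that of 3.80 at 4M became 4.82 without BALB/c replicate 2 and 2.92 without NOD.H-2b replicate 3, and that of 4.86 at 6M became 7.34 without BALB/c replicate 1. Of 10 macrophage markers, 8, 7 and 8 were called 2-fold higher at 2M, 4M and 6M, while Itgam passed at no age. Over all genes tested, 12%, 15.6% and 18.8% were called 2-fold higher. The summed level of the macrophage markers was 168 to 281 CPM in NOD.H-2b against 48.5 to 111 CPM in BALB/c, with none at 0. The part of these cells in the Nos2 level was not tested.

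The endothelial synthase Nos3 passed no test between strains. It had 28 to 57 counts in BALB/c and 33 to 59 in NOD.H-2b, and the groups overlapped at 2M and 6M but not at 4M. It differed by a log2 fold change of -0.21 at 2M (95% interval -0.79 to 0.36, FDR = 0.56), -0.50 at 4M (-1.16 to 0.15, FDR = 0.201) and -0.09 at 6M (-0.78 to 0.59, FDR = 0.816). The interval at 4M reached past a 2-fold decrease. The 10 endothelial markers had a summed level of 67.9 to 88.0 CPM in BALB/c and 108 to 141 CPM in NOD.H-2b. Of these 10 genes, 1 was called 2-fold higher at 2M, 1 at 4M and 2 at 6M, against 12%, 15.6% and 18.8% of all genes tested. Their median log2 fold change was -0.21, -0.04 and 0.29. Kdr was lower at 2M (-0.63, FDR = 0.000322) and Emcn at 6M (-0.79, FDR = 0.00889).

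Per kb of exon, the 3 synthases together reached 0.243 ± 0.0203, 0.224 ± 0.0491 and 0.183 ± 0.0581 CPM per kb in BALB/c at 2M, 4M and 6M (SD, n = 3). In NOD.H-2b they reached 15.7 ± 3.43, 19.9 ± 5.78 and 15.6 ± 4.6 CPM per kb. In BALB/c, 89.3% to 97.5% of this sum was Nos3. In NOD.H-2b, 97.8% to 99.0% of it was Nos1. The main NO synthase transcript of the gland thus was Nos3 in every BALB/c mouse and Nos1 in every NOD.H-2b mouse.

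Across the whole set, Nos1 was next to the lowest of the 10 genes in BALB/c and the highest in NOD.H-2b on the CPM per kb scale. At 2M in NOD.H-2b it stood at 15.4 CPM per kb, followed by Arg2 at 12.7 and Asl at 10.7, and neighbours in this order overlapped between mice. At 4M it stood at 19.6 and did not overlap with Arg1 at 13.1, and at 6M it stood at 15.3 and overlapped with Arg1 at 12.8. In BALB/c the arginases led at every age, with Arg2 at 17.3 and Arg1 at 16.5 CPM per kb at 2M, which overlapped. Below them at 2M came Asl at 11.3, Ass1 at 1.32, Ddah2 at 1.03, Nos1ap at 0.807, Nos3 at 0.224 and Ddah1 at 0.0940, with no overlap between neighbours. Nos1 stood at 0.0126 CPM per kb there, above Nos2 at 0.00677 and overlapping with it.

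The genes whose pattern over the 18 mice was most like that of Nos1 were Ceacam2, Hapln4, Gm1966, Klk1b11 and Gm35572. Each gene was centred on its own mean of log2(CPM + 0.1), and likeness was the root mean square of the differences, among 19117 genes. It was 0.825 for Ceacam2, which ranged from 0.0852 to 0.37 CPM in BALB/c and from 92.6 to 163 CPM in NOD.H-2b. Ceacam2 has close relatives in its gene family, and reads could be shared between them. The difference was 1.19 for Hapln4, 1.26 for the pseudogene Gm1966, 1.47 for Klk1b11 and 1.62 for the lincRNA Gm35572. All 5 were thus genes nearly silent in BALB/c, and none lay on the chromosome of Nos1. The nearest member of the set was Nos2, at rank 1109.

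The genes around Nos1 did not share its size of difference. Of 26 genes starting within 500 kb of Nos1, 9 passed the filter at 2M and 10 at 4M and at 6M. At each age 1 of them was called 2-fold higher in NOD.H-2b and 0 lower by edgeR, while 5, 3 and 3 had an FDR under 0.05 at any fold. Over all genes tested, 12%, 15.6% and 18.8% were called 2-fold higher and 3.76%, 4.72% and 6.03% lower at the 3 ages. At any fold, 39.8%, 42.6% and 54.4% of all genes had an FDR under 0.05. Rnft2 was higher at 2M (log2 fold change 1.88, FDR = 0.00276) and 4M (1.55, FDR = 0.0408), and Tesc, a calcium-binding protein, at 6M (1.63, FDR = 0.00953). Tesc had only 3 to 14 counts in BALB/c and 18 to 26 in NOD.H-2b at 6M, and it passed the filter there through NOD.H-2b. Fbxw8, an F-box protein of ubiquitin ligases, was lower by less than 2-fold at all 3 ages (-0.29, -0.54 and -0.81). The fitted log2 fold change of Nos1 itself was 10.28, 10.99 and 12.08.

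**Figure D2:**
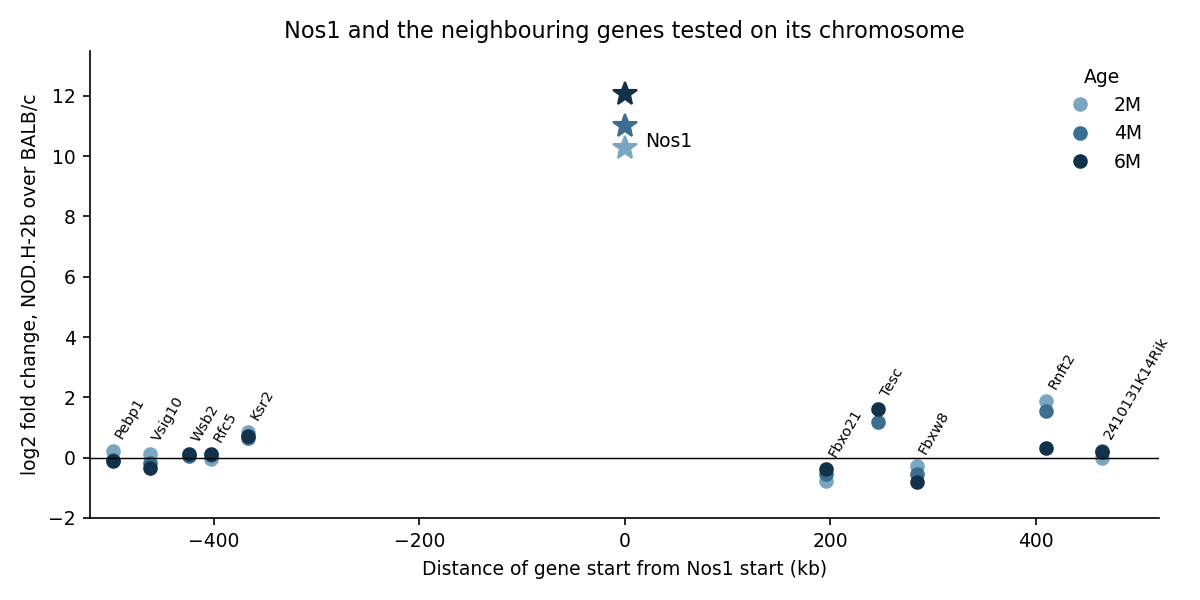
Log2 fold change of NOD.H-2b over BALB/c for the neighbouring genes that passed the filter, against the distance of their start from that of Nos1 in kb, with 1 point per gene and age and Nos1 as stars. Nos1 lies at 10.28 to 12.08 and no neighbour above 1.88.

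Nos1ap, the adaptor that links Nos1 to other proteins, went the opposite way from Nos1. In BALB/c its level was 5.31, 6.55 and 5.70 CPM at 2M, 5.68, 5.32 and 5.15 at 4M, and 4.34, 3.64 and 5.21 at 6M. In NOD.H-2b it was 3.11, 2.86 and 2.33 CPM at 2M, 2.06, 2.41 and 1.66 at 4M, and 2.67, 1.47 and 1.65 at 6M. Every NOD.H-2b mouse was below every BALB/c mouse of its age. In log2 fold change it was lower, at -1.04 ± 0.145 (SE) at 2M, -1.39 ± 0.173 at 4M and -1.14 ± 0.241 at 6M, with FDR = 0.000177, 0.000191 and 0.00266 (edgeR). The value stayed under an FDR of 0.05 with each mouse left out, but the fold fell below 2 at 2M, to -0.94 at the least, and at 6M, to -0.97. Nos1ap overlaps Gm7694 on its own strand and Spata46 on the other. Its strain difference did not change from 2M to 6M beyond the error (-0.09, 95% interval -0.68 to 0.49, FDR = 0.861).

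The arginases were both lower in NOD.H-2b at 2M and 4M, with the largest difference at 2M for Arg1 and at 6M for Arg2. Arg1, the cytosolic enzyme, had 42.2, 32.9 and 35.3 CPM in BALB/c at 2M, 43.7, 51.2 and 38.2 at 4M, and 36.3, 32.0 and 35.1 at 6M. In NOD.H-2b it had 9.10, 12.9 and 15.3 CPM at 2M, 29.8, 30.8 and 26.7 at 4M, and 28.4, 24.0 and 33.0 at 6M. The strains were apart at 2M and 4M and overlapped at 6M. The log2 fold change of NOD.H-2b over BALB/c was -1.52 ± 0.214 (SE, FDR = 0.00296) at 2M, -0.60 ± 0.109 (FDR = 0.00166) at 4M and -0.24 ± 0.109 (FDR = 0.0834) at 6M. Arg1 was not called at 6M, although it was when NOD.H-2b replicate 3 was left out (-0.35, FDR = 0.0235), with no filter on low counts (FDR = 0.0408) and with the replicate number as a block (FDR = 0.0463).

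Arg2, the mitochondrial enzyme, showed the reverse order. It had 23.8, 26.8 and 23.6 CPM in BALB/c at 2M, 19.1, 21.6 and 21.4 at 4M, and 19.5, 17.4 and 25.0 at 6M. In NOD.H-2b it had 18.9, 15.1 and 20.4 CPM at 2M, 6.34, 7.48 and 9.97 at 4M, and 5.96, 6.98 and 4.12 at 6M. The strains were apart at each age, narrowly at 2M. The log2 fold change was -0.40 ± 0.106 (SE, FDR = 0.0131) at 2M, -1.38 ± 0.153 (FDR = 0.000124) at 4M and -1.82 ± 0.205 (FDR = 0.000115) at 6M. At 2M the call was lost without BALB/c replicate 2 (-0.34, FDR = 0.054) and in 1 fit of all 18 mice (FDR = 0.0723). Arg2 overlaps Vti1b and the antisense gene Gm48780 on the other strand.

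With age, the arginases of NOD.H-2b moved apart while those of BALB/c moved little. In NOD.H-2b, Arg1 rose from 2M to 4M by a log2 fold change of 1.22 ± 0.18 (SE, FDR = 0.00965) and from 2M to 6M by 1.17 ± 0.215 (FDR = 0.00802). Arg2 changed by -1.20 ± 0.177 (FDR = 0.00857) and -1.69 ± 0.207 (FDR = 0.00159) over the same spans. In BALB/c, the change of Arg1 from 2M to 6M was -0.10 (95% interval -0.30 to 0.10, FDR = 0.589) and that of Arg2 was -0.27 (-0.55 to 0.01, FDR = 0.254). With 1 mouse left out, this change of Arg2 ran from -0.43 to -0.175 and stayed uncalled in only 5 of 6 fits. From 2M to 4M in BALB/c Arg2 fell by 0.25 on the log2 scale (FDR = 0.0436), a call lost without any 1 of BALB/c 2M replicates 1, 2 and 3 and BALB/c 4M replicates 1 and 2 (FDR = 0.0724, 0.178, 0.0658, 0.124 and 0.0505) and in 1 fit of all 18 mice (FDR = 0.487). Under the replicate block the rise of Arg1 from 2M to 4M in NOD.H-2b missed the threshold (1.25, FDR = 0.0567). The change of the strain difference from 2M to 6M, tested as an interaction, was 1.28 ± 0.234 for Arg1 (FDR = 0.00393) and -1.41 ± 0.267 for Arg2 (FDR = 0.0045), and both calls held with each mouse left out.

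Summed per kb, the arginases of NOD.H-2b were lower by a like amount at each age. The sum was 33.8 ± 1.62, 34.4 ± 3.22 and 29.9 ± 3.34 CPM per kb in BALB/c at 2M, 4M and 6M (SD, n = 3), and 18.3 ± 2.54, 18.6 ± 0.688 and 16.8 ± 1.03 in NOD.H-2b, with no overlap at any age (two-sided exact permutation p = 0.1 each). The share of Arg1 in this sum was 48.7% ± 4.61, 57.7% ± 3.81 and 52.0% ± 3.98 in BALB/c, and 30.5% ± 6.12, 70.3% ± 6.24 and 75.9% ± 7.48 in NOD.H-2b. The main arginase of NOD.H-2b was thus Arg2 in all 3 mice at 2M and Arg1 in all 3 mice at 4M and at 6M. The log2 ratio of Arg1 to Arg2 differed between strains by -1.13 at 2M, 0.81 at 4M and 1.59 at 6M, with no overlap at any age (two-sided exact permutation p = 0.1 each, the smallest possible with 3 mice against 3).

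**Figure D3:**
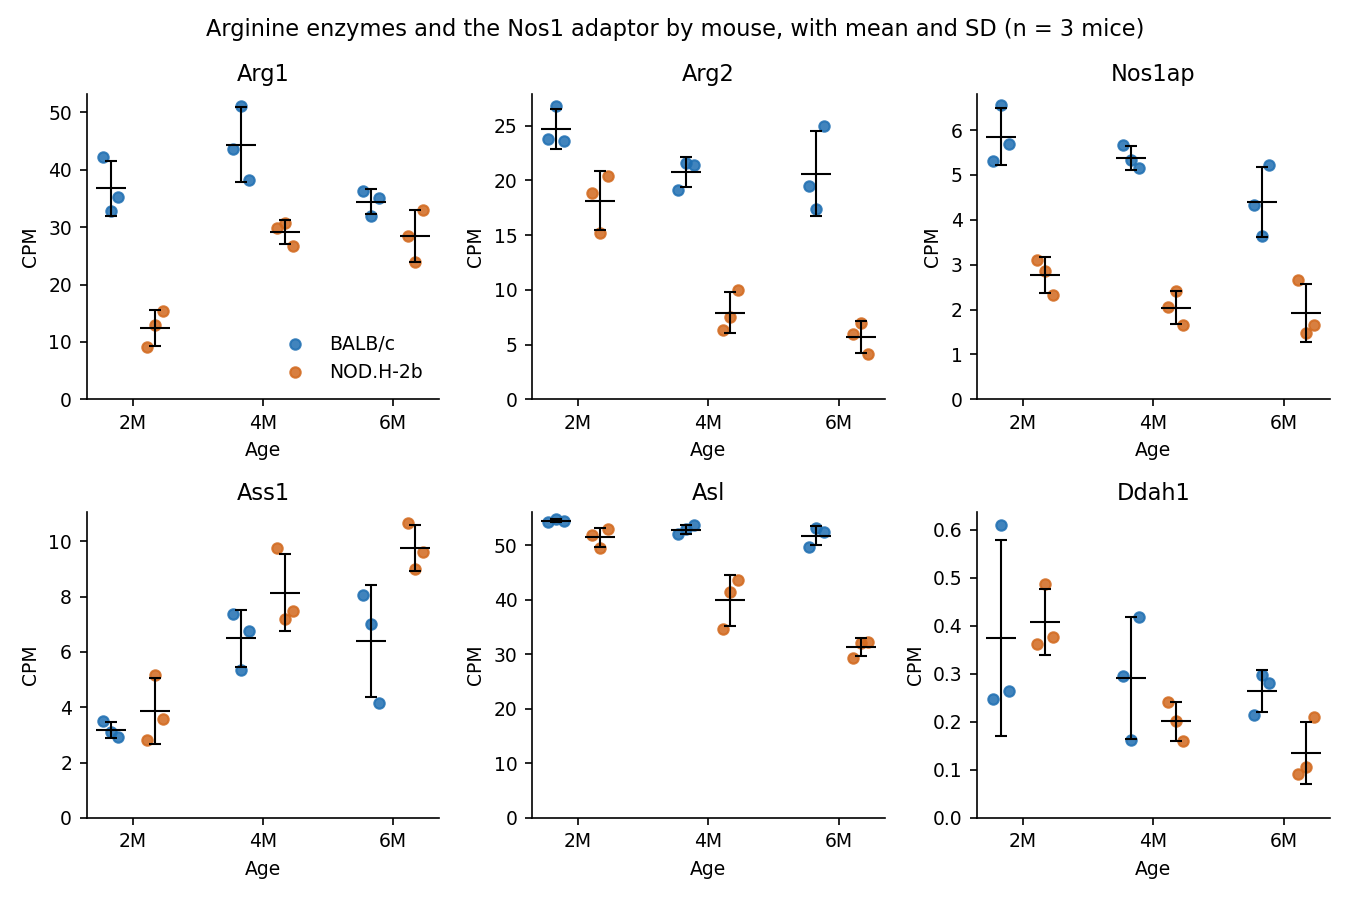
Level of Arg1, Arg2, Nos1ap, Ass1, Asl and Ddah1 in CPM by age and strain, with 1 point per mouse and black bars for the mean and SD of 3 mice. Arg1 of NOD.H-2b climbs from a mean of 12.5 CPM at 2M to 28.5 at 6M while Arg2 falls from 18.1 to 5.69.

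The enzymes that rebuild arginine from citrulline also diverged. Ass1, whose reaction limits the rate of this recycling, had 3.50, 3.11 and 2.93 CPM in BALB/c at 2M, 7.35, 5.34 and 6.77 at 4M, and 8.05, 7.01 and 4.14 at 6M. In NOD.H-2b it had 2.83, 5.16 and 3.58 CPM at 2M, 9.75, 7.20 and 7.49 at 4M, and 10.7, 9.01 and 9.61 at 6M. The strains overlapped at 2M and 4M and were apart at 6M. Between strains the log2 fold change was 0.33 at 2M (FDR = 0.25), 0.33 at 4M (FDR = 0.131) and 0.63 ± 0.217 at 6M (SE, FDR = 0.035). The call at 6M was lost without BALB/c replicate 2 (FDR = 0.0619), without any 1 of NOD.H-2b replicates 1, 2 and 3 (FDR = 0.099, 0.0525 and 0.0722) and with no filter on low counts (FDR = 0.0611). Without NOD.H-2b replicate 1, Ass1 was called at 2M (0.50, FDR = 0.0483).

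Ass1 rose with age in both strains. From 2M to 4M the log2 fold change was 1.04 ± 0.142 in BALB/c (SE, FDR = 0.000743) and 1.08 ± 0.232 in NOD.H-2b (FDR = 0.0226). From 2M to 6M it was 1.02 ± 0.222 in BALB/c (FDR = 0.0311) and 1.32 ± 0.208 in NOD.H-2b (FDR = 0.00274). The difference between these rises was 0.32 (95% interval -0.36 to 1.00, FDR = 0.537). In BALB/c the rise to 6M was lost without any 1 of 2M replicates 1, 2 and 3 (FDR = 0.0867, 0.124 and 0.136) or 6M replicates 1 and 2 (FDR = 0.0751 and 0.125). In NOD.H-2b the rise to 4M was lost without 2M replicate 3 (FDR = 0.102) or 4M replicate 1 (FDR = 0.0537). With the replicate number as a block, the rise to 4M in NOD.H-2b lost its call (1.10, FDR = 0.0964), and the rise to 6M in BALB/c fell below 2-fold (0.97, FDR = 0.00716).

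Asl, the next enzyme of the cycle, was level in BALB/c and lower with age in NOD.H-2b. It had 49.8 to 54.9 CPM in the 9 BALB/c mice. In NOD.H-2b it had 52.0, 49.6 and 53.0 CPM at 2M, 34.6, 41.4 and 43.7 at 4M, and 29.4, 32.1 and 32.3 at 6M. The log2 fold change between strains was -0.04 ± 0.0483 at 2M (SE, FDR = 0.55), -0.40 ± 0.0874 at 4M (FDR = 0.00436) and -0.69 ± 0.0722 at 6M (FDR = 2.97e-05), so it did not reach 2-fold. In NOD.H-2b Asl fell by 0.74 ± 0.0697 from 2M to 6M on the log2 scale (FDR = 0.000447). It fell by 0.37 from 2M to 4M (FDR = 0.0261), a call lost without 2M replicates 1 or 3 or 4M replicate 2 (FDR = 0.0737, 0.101 and 0.0573) and under the replicate block (FDR = 0.0748). The strain difference changed from 2M to 6M by -0.64 ± 0.0985 (FDR = 0.00103), also with each mouse left out.

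The median strain difference of epithelial markers was negative at 4M and 6M too. Of 8 epithelial genes, 5 were higher and 2 lower at an FDR under 0.05 at 2M, 4 were lower at 4M and 5 at 6M, with 0 higher at both. Over all genes tested, 39.8%, 42.6% and 54.4% had an FDR under 0.05 in either direction at the 3 ages. The median log2 fold change of the epithelial genes was 0.41, -0.30 and -0.43 over the 3 ages, and that of 7 acinar genes was -0.18, -0.28 and -0.55. The summed epithelial level of NOD.H-2b was 852 to 985 CPM at 2M and 546 to 652 CPM at 6M, against 759 to 906 CPM over all BALB/c mice. For the change of the strain difference from 2M to 6M, the median was -0.74 for the epithelial and -0.30 for the acinar genes, beside -0.64 for Asl and -1.41 for Arg2. No gene of either list was at 0 in a whole group, and the part of these cells in the fall of Arg2 and Asl was not tested.

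Within each mouse, the balance of Asl to Ass1 per kb fell with age and fell further in NOD.H-2b. The ratio was 8.62 ± 0.78, 4.15 ± 0.726 and 4.40 ± 1.71 in BALB/c at 2M, 4M and 6M (SD, n = 3), and 7.12 ± 2.21, 2.52 ± 0.646 and 1.61 ± 0.21 in NOD.H-2b. On the log2 scale the strains differed by -0.32 at 2M (two-sided exact permutation p = 0.3), -0.74 at 4M and -1.39 at 6M (p = 0.1 each, the smallest possible).

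**Figure D4:**
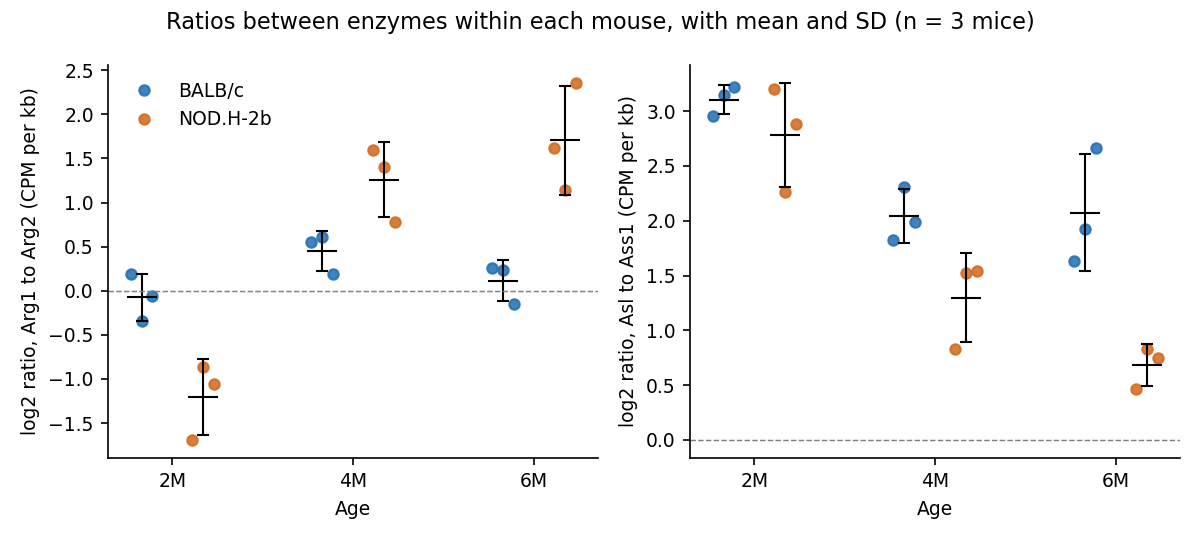
Log2 ratio of Arg1 to Arg2 (left) and of Asl to Ass1 (right), both in CPM per kb, for each mouse by age and strain, with bars for the mean and SD of 3 mice. The arginase ratio of NOD.H-2b lies below that of BALB/c at 2M and above it at 4M and 6M.

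The enzymes that clear methylated arginines were expressed at low levels and did not differ between strains by the test. Ddah1 had 8 to 34 counts in BALB/c and 6 to 32 in NOD.H-2b, with a strain log2 fold change of 0.17 at 2M (95% interval -0.75 to 1.08), -0.54 at 4M (-1.57 to 0.50) and -0.92 at 6M (-1.95 to 0.11). These wide intervals do not show that the strains were alike. Within NOD.H-2b, Ddah1 fell by 1.62 ± 0.431 from 2M to 6M on the log2 scale (SE, FDR = 0.0162), from 22, 32 and 24 counts to 7, 6 and 12. Ddah1 passed the filter on low counts there through the 2M mice, where it was the higher, so the test favoured a fall. The call was lost without 2M replicate 2 (FDR = 0.0539) or 6M replicate 1 (FDR = 0.0612). Ddah2, which lies in the major histocompatibility complex on chromosome 17, where the strains carry different haplotypes, had 59 to 146 counts in BALB/c and 73 to 161 in NOD.H-2b. Its log2 fold change was 0.25, 0.25 and 0.38 at 2M, 4M and 6M (FDR = 0.317, 0.52 and 0.191).

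Counted together at 2M, 1 of the 9 genes other than Nos1 was called 2-fold higher in the disease model (Nos2), against 12% of the 17200 genes tested, and 2 were called lower (Arg1 and Nos1ap), against 3.76%. At 4M the same count was 1 higher (Nos2) against 15.6% of genes and 2 lower (Arg2 and Nos1ap) against 4.72%. At 6M it was again Nos2 higher, against 18.8%, and Arg2 and Nos1ap lower, against 6.03%. At an FDR under 0.05 and any fold, 4, 5 and 5 of the 9 were called, against 39.8%, 42.6% and 54.4% of genes. With 9 genes these counts are too small to be read as a trait of the set. Nos2, the only gene called 2-fold higher, passed the filter only through NOD.H-2b and so had to differ. It is also in the counts at any fold. The count of genes called lower was 1 without BALB/c replicate 2 or NOD.H-2b replicate 3 at 2M, and without NOD.H-2b replicate 2 at 6M. The median log2 fold change of the 9 genes was -0.04, -0.50 and -0.24, beside medians of 0.01, 0.00034 and -0.0041 over all genes tested.

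**Figure D5:**
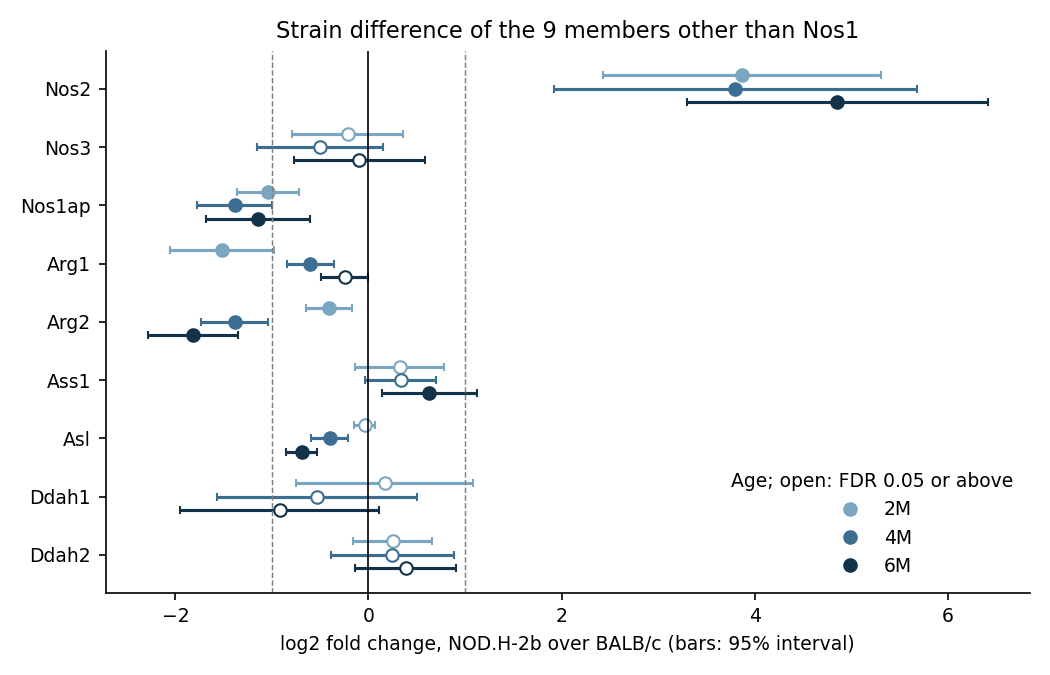
Log2 fold change of NOD.H-2b over BALB/c for the 9 genes other than Nos1 at 2M, 4M and 6M, with 95% intervals, filled points for an FDR under 0.05 and dashed lines at 2-fold. Nos2, which passed the filter only through NOD.H-2b, lies to the right. Nos1ap, Arg1 at 2M and Arg2 at 4M and 6M lie beyond 2-fold on the left.

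Across age in BALB/c, Ass1 was the only 1 of the 8 members tested to be called 2-fold higher, from 2M to 4M (2.07% of all genes) and from 2M to 6M (1.57%), and 0 were called lower (0.3% and 0.115%) in edgeR, with 2 members at an unadjusted p under 0.05 in either span and 0 lower in DESeq2. In NOD.H-2b, Arg1 and Ass1 were called 2-fold higher among 10 tested from 2M to 4M (5.97%) and from 2M to 6M (10.9%). Arg2 was called lower over both spans (0.625% and 1.55%), and Ddah1 also over the longer, where it passed the filter through the 2M mice. From 4M to 6M 0 members were called 2-fold in either strain (BALB/c 0.018% each way, NOD.H-2b 0.00555% higher and 0% lower) or at any fold (0.307% and 0.00555%) in edgeR, 0 also in DESeq2, with 1 member per strain at an unadjusted p under 0.05 (Arg1 for BALB/c, Asl for NOD.H-2b). Without the fold threshold, BALB/c had 2 members called from 2M to 4M (11.1% of genes) and 1 from 2M to 6M (5.61%), while NOD.H-2b had 4 (15.8%) and 5 (40%). For the change of the strain difference, Arg1 was called higher (3.6% of genes) and Arg2 lower (1.5%), and 3 members had an FDR under 0.05 (16.1%).

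Partner genes of NO synthesis were followed as lists. Of 8 tetrahydrobiopterin genes, which make the cofactor of all NO synthases, 7, 8 and 8 were tested. At each age 1 was called 2-fold higher and 0 lower, with a median log2 fold change of -0.00055, -0.06 and -0.29. At an FDR under 0.05 and any fold, 2, 1 and 1 were higher and 2, 3 and 3 lower. Over all genes, 12%, 15.6% and 18.8% were called 2-fold higher, and 39.8%, 42.6% and 54.4% were called at any fold in either direction. The gene called 2-fold higher was Gch1, the rate-limiting enzyme of the cofactor. It had 0.464, 0.802 and 0.468 CPM in BALB/c against 1.5, 2.56 and 3.34 CPM in NOD.H-2b over the 3 ages. Its log2 fold change was 1.73, 1.66 and 2.91 (FDR = 0.00944, 0.0152 and 8.75e-06). Of 17 partner proteins of the synthases, such as syntrophins, calmodulins and caveolins, 16 were tested and 0 were called 2-fold in either direction at any age, although 7, 8 and 8 had an FDR under 0.05 by edgeR and 8, 9 and 9 an unadjusted p under 0.05. Of 8 arginine transporters, 6 were tested, with 0 higher and 1 lower at 2M, and 1 higher and 0 lower at 4M and at 6M.

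Downstream of NO, 18 genes of the guanylate cyclase and cGMP pathway were listed, of which 15, 16 and 17 were tested. At 2M 4 were called 2-fold higher and 0 lower, at 4M 4 and 2, and at 6M 8 and 0, with a median log2 fold change of 0.22, 0.16 and 0.73. Over all genes 12%, 15.6% and 18.8% were called higher. The count at 6M includes Cnga1, which had 0 counts in all BALB/c mice and was tested at that age only. At any fold, 3, 3 and 4 genes had an FDR under 0.05 and a lower level, among them Gucy1a1, a subunit of the NO receptor, at each age (-0.94, -0.62 and -0.50). Called at every age were Lrmp (Irag2), Pde1c and Pde3b, of which Pde1c and Pde3b are phosphodiesterases that degrade cyclic nucleotides. Pde3b had 8.41, 5.58 and 7.95 CPM in BALB/c against 29.4, 18.7 and 25.7 CPM in NOD.H-2b over the 3 ages. Pde1c stood apart most at 2M, with 7.15 CPM in NOD.H-2b against 0.887 in BALB/c (log2 fold change 3.05, FDR = 1.86e-07), and its difference narrowed by -1.68 from 2M to 6M (FDR = 0.00288). Lrmp, a gene also known from lymphocytes, was higher by 2.16, 3.32 and 4.22 on the log2 scale, while the 6 T cell markers summed to 7.20 to 91.5 CPM in NOD.H-2b and 0.159 to 4.40 in BALB/c. All 6 were called higher at each age, but most passed the filter only through NOD.H-2b. The part of T cells in the level of Lrmp was not tested.

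Downstream of arginase, 15 of 17 polyamine genes were tested, with 0, 0 and 2 called 2-fold higher and 1 lower at each age. Of 8 ornithine and proline genes 7 were tested, with 0 higher and 0, 0 and 1 lower. Over all genes tested, 12%, 15.6% and 18.8% were called 2-fold higher and 3.76%, 4.72% and 6.03% lower. At an FDR under 0.05 and any fold, 4, 3 and 3 polyamine genes were higher and 4, 4 and 7 lower. The ornithine and proline genes had 0 higher and 2, 3 and 4 lower, with a median log2 fold change of 0.03, -0.25 and -0.49. Over all genes, 39.8%, 42.6% and 54.4% were called at any fold in either direction. The polyamine gene called 2-fold lower at every age was Amd2, a near copy of Amd1 between which reads could be shared. Among 7 creatine genes, Gatm, which consumes arginine in the first step of creatine synthesis, was higher at each age (log2 fold change 2.36, 2.20 and 2.45). The muscle creatine kinase Ckm was lower (-3.21, -3.01 and -4.04), as was the oxygen and NO binding myoglobin Mb (-3.09, -3.21 and -4.32). Both are themselves the 2 skeletal muscle markers called lower, of 2 tested at 2M and 3 at 4M and 6M. The other one tested was called higher, Mylpf at 4M (1.38, FDR = 0.0337) and Tnni2 at 6M, and both passed the filter through NOD.H-2b. The part of muscle in Ckm and Mb was not tested.

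Of 12 known inducers of Nos2, 10, 11 and 12 were tested and 5, 5 and 7 were called 2-fold higher, against the 12%, 15.6% and 18.8% of all genes, with 0 lower by edgeR. Hif1a, named after its values were seen, was lower at each age by less than 2-fold (-0.56, -0.37 and -0.73). Ifng was tested at 6M only, where it passed the filter through NOD.H-2b. Il1a, also among those called, was tested at 4M and 6M only (log2 fold change 2.62 and 6.67). A gene that enters the test through NOD.H-2b alone had to be higher, so these counts are no evidence on the list. The median log2 fold change of the list was 0.84, 0.79 and 1.45. Those called at every age included Tnf, Il1b and Irf1. Irf1, a transcription factor induced by interferon, had 12.1, 20.2 and 15.1 CPM in BALB/c against 26.1, 49.6 and 49.3 CPM in NOD.H-2b over the 3 ages. Of 8 inducers of Arg1, 5 were tested and 1, 2 and 2 were called higher. Among them, the interleukin 4 receptor Il4ra was higher at each age (log2 fold change 2.06, 3.32 and 3.90). Of 11 genes of S-nitrosothiol and NO removal, 10 were tested, with 0, 0 and 1 called 2-fold higher and 1 lower at each age, which was Mb. For urea cycle entry 2, 3 and 3 of 6 genes were tested, for arginine methylation 8 of 10, and 0 of those tested were called 2-fold at any age by edgeR, while 1, 2 and 1 of the former and 3, 3 and 4 of the latter had an FDR under 0.05 and 1, 2 and 1 and 5, 3 and 4 an unadjusted p under 0.05.

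The markers of the LG were abundant in all samples. The 7 acinar genes summed to 47730 to 93960 CPM, and the total counts per mouse ranged from 49480781 to 103936830, with BALB/c 6M replicate 1 the deepest. B cell and T cell markers were far higher in NOD.H-2b than in BALB/c at 4M and 6M, at 115 to 363 against 0.665 to 1.73 CPM for the 6 B cell genes. The 7 genes listed for salivary gland summed at 2M to 4936 to 6779 CPM in NOD.H-2b against 4283 to 4927 CPM in BALB/c. They include Mucl2, which the study names among the labels of a lacrimal acinar cluster, so the sum does not show salivary tissue. Smgc of this list had no counts at 2M in either strain. At 4M and 6M the order was reversed, with 5223 to 7308 CPM in BALB/c and 2455 to 4084 CPM in NOD.H-2b, and their part in the results was not tested.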

How the data were processed

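Total RNA of 1 LG per mouse was depleted of ribosomal RNA and sequenced in 18 samples (6 groups of 3). The authors used cutadapt for trimming, STAR for alignment to GRCm38 and HTSeq for counting per gene, and deposited the raw counts. Versions, annotation release, strand setting and the handling of multiply mapped reads are not given in the sources used here. The log2 values in the second table deposited by the authors are log2 of 1 plus these counts over a DESeq2 size factor. They matched the counts within 0.1% for 100% of the genes checked, which left out genes with few counts in a sample. They were not used further.

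Samples were grouped by strain and age from the labels, as unpaired mice, and the labels name no batch. Replicates differed by more than counting error (chi-square per gene 17.7 to 91.1), so precision is set by 3 mice and not by depth. Genes were named from GENCODE M21, which held 54079 of the 54232 identifiers. Contrasts of strain (at 2M, 4M and 6M) and of age (within either strain) used the 6 mice of each and were fitted with edgeR 4.0.16 in R 4.3.3 (TMM, filterByExpr, robust quasi-likelihood test) over all genes, with Benjamini-Hochberg adjustment (FDR). The change of the strain difference from 2M to 6M came from 1 fit of all groups. A call needed an FDR under 0.05 and, where stated, a 2-fold change. CPM used TMM-scaled library sizes, and the exon length is that of the merged exons of M21, which understates the level of a gene that uses a short isoform. Likeness to Nos1 used log2(CPM + 0.1). Ratios per mouse were compared by two-sided exact permutation tests (SciPy 1.17.1). The floor was 3 counts per library. The scripts were tested on simulated data.

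The genes named are the 10 members, genes overlapping or within 500 kb of Nos1, the 5 genes most like Nos1, and from each list the members called 2-fold at every age in 1 direction, at most 4 each way. Some genes that this rule names are not reported here. The members and lists were chosen with earlier results of these data known. Alternatives were DESeq2 size factors, no filter on low counts, DESeq2 1.42.0, 1 fit of all mice or of the 12 mice of 2M and 6M, the replicate number as a block, and leaving out each mouse. Leaving out mice for the arginase ratio was added after the data were seen. The Visium, histology and flow cytometry data of the study were not analysed here.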

Additional observations from a re-analysis of the deposited data

Results flagged for a closer look

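The strain difference of 3 genes of the set changed between 2M and 6M by a test of the change itself (edgeR interaction term, FDR under 0.05). For Arg1 the log2 fold change of NOD.H-2b over BALB/c rose by 1.28 (SE 0.234, FDR = 0.00393), with all 3 NOD.H-2b mice of 6M above all 3 of 2M. For Arg2 it changed by -1.41 (SE 0.267, FDR = 0.0045) and for Asl by -0.644 (SE 0.0985, FDR = 0.00103), with all 3 NOD.H-2b mice of 6M below all 3 of 2M in both. Called with the same 2-fold rule were 3.6% of genes upwards and 1.5% downwards, and Asl did not reach 2-fold.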

How the results depend on the processing

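Depth limits Nos1 and Nos2 in BALB/c, which lay at 0 to 10 counts, and Ddah1, and with 3 mice per group several calls rest on single mice. Replacing TMM by DESeq2 size factors or edgeR by DESeq2 changed no call of a member, and the median over all genes moved by at most 0.0238 (log2) between scalings. With 1 mouse left out at a time, a tested gene counted as unchanged if it kept direction and call. The strain difference of Nos1, which was not tested, counted as unchanged if it shifted by less than the larger within-strain SD of log2(CPM + 0.1) at that age. Of 390 values of single genes and ratios, 357 were unchanged. Leave-one-out turned the direction in 7 of the 390 values, which belong to 4 results that were not called: the strain log2 fold change of Ddah1 at 2M (-0.056 to 0.708) and of Nos3 at 6M (-0.242 to 0.175), and the change from 2M to 6M of Arg1 in BALB/c (-0.176 to 0.009) and of Nos1 in NOD.H-2b (-0.249 to 0.183). The number of members called 2-fold lower in NOD.H-2b ranged from 1 to 2 at 2M and from 1 to 2 at 6M. In BALB/c the number called higher with age ranged from 0 to 1 over both the span from 2M to 4M and that from 2M to 6M. In NOD.H-2b it ranged from 1 to 2 over both spans, where the number called lower from 2M to 6M ranged from 1 to 2. The strain difference of the arginase ratio kept its direction at each age, at -1.302 to -0.89, 0.643 to 1.048 and 1.261 to 1.871 (log2). No call of the change of the strain difference was lost.

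The replicate numbers shared by the groups did not pair the mice, with correlations of the deviations from -0.3 to 0.298. With the replicate number as a block, 0 members were called higher in BALB/c (2M to 6M) and 0 in NOD.H-2b (2M to 4M), in place of 1 (Ass1) and 2 (Arg1 and Ass1).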
